A study of Homo sapiens with 2 samples.

Results

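ERα peaks around XBP1 were described in T47D, a human cell line derived from breast cancer that expresses the oestrogen receptor. The locus was taken as the 300 kb window chr22:29050000-29350000 of the hg19 build, and a peak belonged to it when its centre lay inside. Of the 12688 peaks in the deposited list, 9 met this rule. The list compares 1 ERα immunoprecipitation library, made with the H-20 antibody, with 1 input library, sonicated DNA that saw no antibody. Both came from cells held for 48 h without steroids and then exposed to 10 nM 17β-estradiol for 45 min. No library from cells without estradiol was analysed here, so the values describe occupancy under estradiol and not a change caused by it. There were no replicates and the read depth is unknown, so no value has a replicate error and none was tested. Each peak carries a score from the authors' peak caller whose scale is not stated. Scores were used only within this list, to rank peaks and to compare median scores of groups.

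XBP1 encodes a basic leucine zipper transcription factor of the unfolded protein response. When misfolded proteins build up in the endoplasmic reticulum, the sensor IRE1 splices the XBP1 mRNA, and the spliced form yields the active factor that raises folding and secretory capacity. In luminal breast cancer the gene is known as an oestrogen-induced gene that is often highly expressed. ERα itself is a ligand-activated nuclear receptor that binds DNA as a dimer at oestrogen response elements, inverted repeats in which a short arm occurs on each strand. Much of its binding in breast cancer cells is known to lie at distal enhancers rather than at promoters.

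No ERα peak was listed at the XBP1 promoter. The gene lies on the minus strand, with its start near 29196560 and its end near 29190548, so that higher coordinates are upstream. None of the 9 peak centres lay within 1 kb of the start, and none lay between the start and the end of the gene. The shares of all listed peaks near gene starts or inside genes were not computed, so these counts cannot be set against the list. The nearest peak was centred 4.34 kb upstream. Upstream of the start there were 8 peaks, at 4.34 to 26.0 kb, and 1 further peak lay downstream, 3.71 kb past the end of the gene.

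The sequence just before the XBP1 start is shown because it is part of the 13544 bp around the gene where no peak was listed. It comes from RefSeq on GRCh38.p14 (chr22:28800570-28800819, minus strand), whereas the peaks are on hg19, and it covers the 250 bases before the start. Capitals mark a match to a single arm of the oestrogen response element, here read on the opposite strand as TGACC, and further on a match to the endoplasmic reticulum stress response element.
XBP1 promoter: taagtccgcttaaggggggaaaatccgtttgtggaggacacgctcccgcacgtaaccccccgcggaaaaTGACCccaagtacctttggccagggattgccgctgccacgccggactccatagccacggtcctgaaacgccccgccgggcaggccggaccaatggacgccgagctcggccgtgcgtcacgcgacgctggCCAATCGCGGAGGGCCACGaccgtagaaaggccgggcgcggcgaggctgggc

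The full oestrogen response element, read as GGTCA, then 3 bases of any kind, then TGACC, had 0 matches in these letters on either strand, and still 0 when 1 mismatch was allowed. In the RefSeq table, 0.0399% of 35116 promoter sequences of this length held a full match and 0.678% held one with up to 1 mismatch. The single arm GGTCA, which occurs in every full element, matched once, 181 to 177 bases before the start. Such an arm is common, as 32.6% of the promoter sequences held at least 1 on either strand. The table gives a second XBP1 start 492 bp further into the gene, and its 250 upstream bases also held 1 single arm and 0 full elements. The stress response element, read as CCAAT, then 9 bases of any kind, then CCACG, was searched for after the sequence had been read. It matched once, 52 to 34 bases before the first start, and 26 of the 35116 promoter sequences (0.074%) held it on either strand. It is known as a sequence through which ATF6, another transcription factor of the unfolded protein response, acts. These matches describe letters in a window and no binding was measured there.

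The highest-scoring ERα peaks at XBP1 stood 13 to 23 kb upstream of the gene. The peak at chr22:29209240-29210421, centred 13.3 kb upstream, scored 3100 and was 1182 bp wide. A second peak with the score 3100 lay at chr22:29215190-29216356, 19.2 kb upstream, and was 1167 bp wide. Their centres were 5.94 kb apart. Peaks scoring 3100 or more are called strong here. The score 3100 was shared by 235 peaks of the list and exceeded by 34, so these peaks cannot be ranked against the others that carry it, and 97.9% of the list scored lower. The third, at chr22:29218698-29219487, 22.5 kb upstream, scored 2688.74, above 97.1% of the list. These 3 peaks lay within 9.26 kb of one another, measured between centres.

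Peaks of intermediate score stood directly beside them. The peak at chr22:29219618-29220158, 23.3 kb upstream, scored 1099.52 and began 130 bp beyond the edge of the one scoring 2688.74. The peak at chr22:29213929-29215116, 18.0 kb upstream, scored 654.10 and was separated by 73 bp from the strong peak at 19.2 kb. With 1188 bp it was the widest of the 9. Between these pairs, the peak at chr22:29217535-29218405, 21.4 kb upstream, scored 240.74 with a width of 871 bp.

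The outermost peaks of the upstream group were weak. The peak closest to the gene, at chr22:29200639-29201168 and 4.34 kb upstream, scored 137.76, and 52.2% of the list scored lower. The farthest, at chr22:29222378-29222757 and 26.0 kb upstream, scored 56.13 and was the narrowest at 380 bp. Only 9.8% of the list scored lower, and the lowest listed score was 50. On the other side of the gene, the single downstream peak at chr22:29186575-29187094 scored 619.10, above 83.6% of the list, and was 520 bp wide. Scores along the locus therefore did not fall steadily with distance from the start. Among the 7 inner peaks, 3 (those at 13.3, 19.2 and 22.5 kb upstream) scored above both of their neighbours. Those at 19.2 and 22.5 kb had neighbours less than 500 bp away. After merging across gaps of up to 500 bp, the top scores in order of coordinate were 619.10, 137.76, 3100, 3100, 2688.74 and 56.13. No merged region then scored above both of its neighbours.

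**Figure D1:**
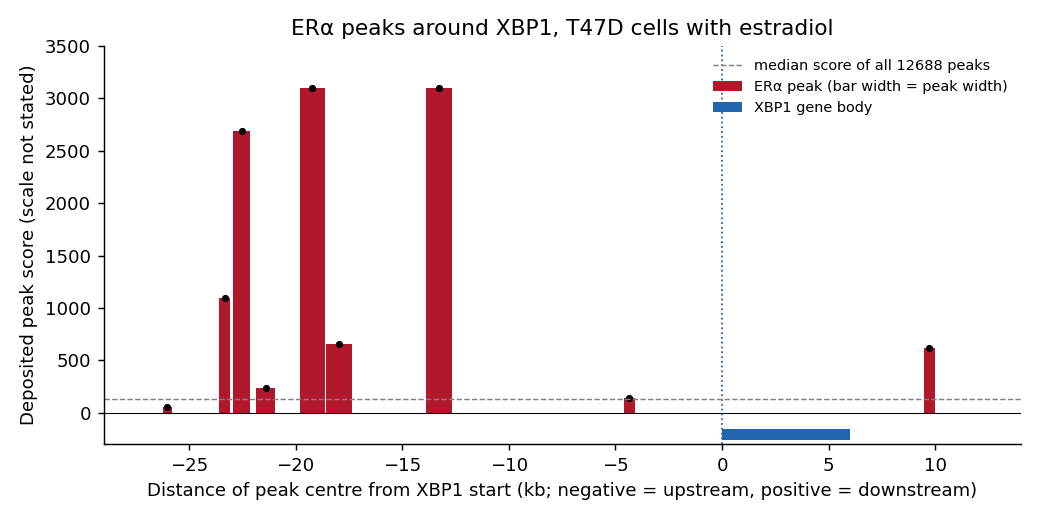
Deposited score (vertical axis, scale not stated) of each of the 9 peaks against the distance of its centre from the XBP1 start in kb, negative upstream; bars are as wide as the peaks, the blue bar is the gene body and the dashed line is the median score of all 12688 peaks. The 2 peaks at 3100 and the one at 2688.74 stand 13.3 to 22.5 kb upstream, and no bar falls at the start or on the gene body.

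As a group, the XBP1 peaks ranked high in the list. Their median score was 654.10, against 145.65 for the 241 other peaks of chromosome 22 and 128 for the whole list. At or above the list median stood 8 of the 9, beside 50.0% of all listed peaks and 52.3% of the other peaks of chromosome 22. The scores of 6 of the 9 were among the highest 25.0% of all listed peaks. A score of 1000 or more was reached by 4 of the 9, against 10.6% of the list. Scores of 3100 or more were carried by 2 of the 9, against 2.12% of the list and 1.24% of the other peaks of chromosome 22. That chromosome held 5 peaks of this score in all, so 2 of its 5 lay upstream of XBP1.

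The XBP1 peaks were also wide. Their median width was 790 bp, against 464 bp for the other peaks of chromosome 22 and 505 bp for the list, and 8 of the 9 were wider than the list median. Both strong peaks and the one scoring 654.10 were wider than at least 96.7% of the list. Width and score go together in this list, with a Spearman correlation of 0.63 across all peaks, which come from 1 pair of libraries, and of 0.66 across the 9. Set against listed peaks within 10% of its own width, each of the 9 was ranked again. On this scale 5 of the 9 reached the median of peaks as wide as themselves. The 5 were both strong peaks, those scoring 2688.74 and 1099.52, and the downstream one. The peak scoring 654.10 was above 37.0% of the 281 peaks of its width, and the one scoring 240.74 was above 31.9% of 884. The downstream peak was above 92.2% of the 3040 peaks of its width.

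**Figure D2:**
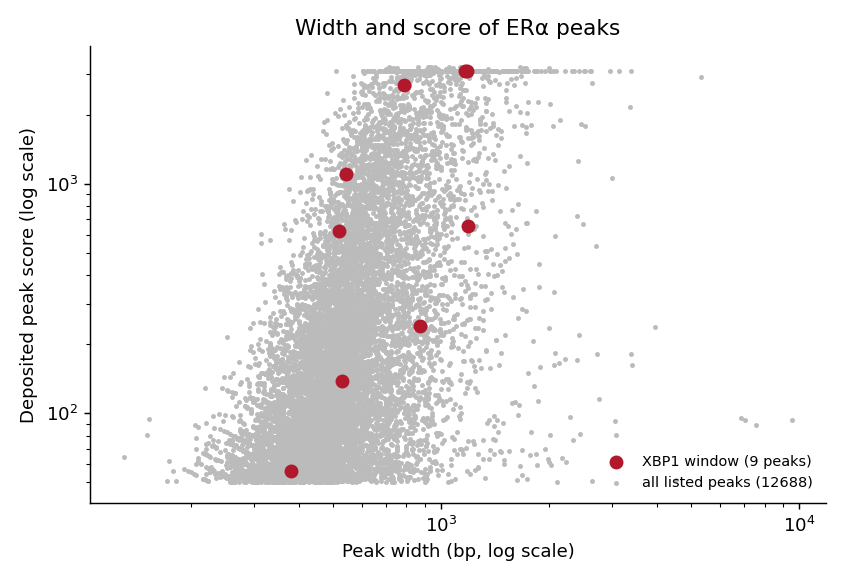
Score against width in bp (both axes on a log scale) for the 9 peaks of the XBP1 window in red and all 12688 listed peaks in grey. The 9 run from 380 to 1188 bp and from 56.13 to 3100, and the widest one, with a score of 654.10, lies below most peaks of its width.

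The peaks were packed into a small part of the window. From the first to the last they spanned 36.2 kb (chr22:29186575-29222757), 12.1% of the window, and the rest of it held no listed peak. Another centre within 10 kb was found for 8 of the 9, against 41.3% of the list. At least 4 other centres within 10 kb were found for 7 of the 9, against 3.41% of the list. Of the 8 gaps between neighbouring edges, 3 were under 500 bp (73, 130 and 292 bp), against 5.39% of the neighbouring pairs on chromosomes 1 to 22 and X. Peaks that close may be 1 enriched region divided by the caller, which was not tested. Merging across gaps of up to 500 bp left 6 regions, of which one at chr22:29213929-29216356 joined 2 peaks and one at chr22:29217535-29220158 joined 3.

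The window held more peaks than most stretches of its length. Its 9 peaks correspond to 30.0 per Mb, against 4.73 per Mb on the rest of chromosome 22 and 4.17 per Mb over chromosomes 1 to 22 and X. Whole chromosome lengths were used, with stretches of unknown sequence, which can hold no peak, left in. Both comparison rates are therefore lower than over known sequence alone. The window counts that follow include such stretches too. Of 10111 adjoining windows of 300 kb on these chromosomes, 187 (1.85%) held 9 or more peaks, the median window held 0 and the fullest held 26. On chromosome 22 this was so for 4 of 171 windows, and the fullest held 18. Both the 187 and the 4 include the adjoining window that holds the 9 XBP1 peaks themselves. The XBP1 window was thus among the fuller ones but not the fullest. The share depends on how windows are chosen, since 18.5% of windows centred on a listed peak held 9 or more.

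**Figure D3:**
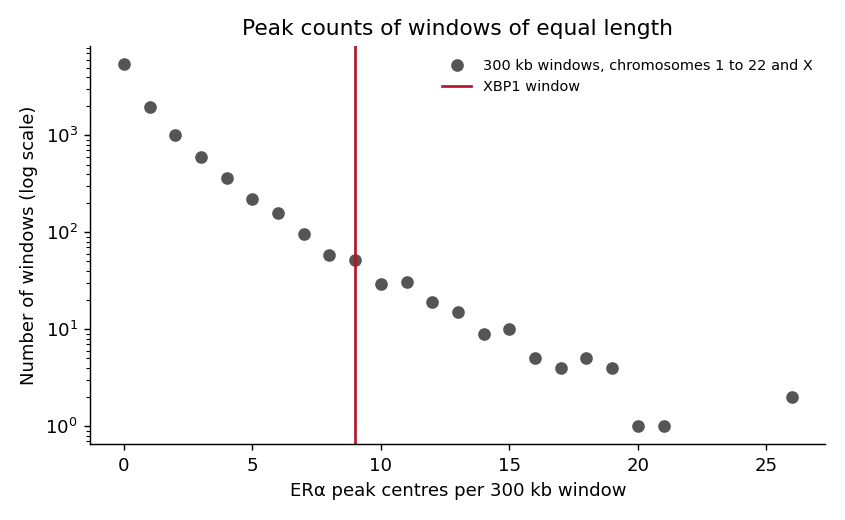
Number of adjoining 300 kb windows on chromosomes 1 to 22 and X (vertical axis, log scale) that hold a given number of ERα peak centres (horizontal axis). The red line marks the XBP1 window with 9 peaks, which 187 of the 10111 windows reach or exceed. The 187 include the adjoining window that holds the XBP1 peaks themselves.

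Joining peaks whose edges lay within 10 kb put all 8 upstream peaks into 1 cluster of 22.1 kb (chr22:29200639-29222757) and left the downstream peak alone, 13544 bp from it. The list held 28 clusters of 8 or more peaks, and the XBP1 cluster had the highest median score of the 28 at this joining distance but not the greatest length. Its median score was 876.81, against 119.28 to 733.67 in the 27 other clusters. With 8 peaks, this median is the midpoint of the scores 654.10 and 1099.52, on a scale that is not stated. Other clusters, with medians of 708.99 and 733.67, exceeded the lower of these scores. The place of the XBP1 cluster depends on the size of cluster compared: among 140 other clusters of 5 or more peaks, 8 had a higher median score, and among 313 others of 4 or more, 29 had. It also depends on the joining distance: within 20 kb, the XBP1 region of 9 peaks had a median score of 654.10, and 1 of the 47 other regions of 9 or more peaks was higher, at 1243.99. The XBP1 cluster was shorter than 21 of the 27, whose median length was 32.8 kb. Its peaks covered 30.1% of its length, against 11.1% to 69.7% in the others.

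Few regions of the list held more than 1 strong peak. In the XBP1 cluster there were 2 peaks scoring 3100 or more, whereas 1 of the 27 other clusters held more (4), 1 held as many and 13 held none. The limit of 3100 is the score of the XBP1 pair itself, and no nearby limit was tried. The highest scores in the 13 clusters without a strong peak ran from 359.16 to 2969.91. Over all 9292 regions formed by this joining on chromosomes 1 to 22 and X, 257 held at least 1 strong peak and 9, the XBP1 cluster included, held 2 or more. Seen by peak, 18 of the 269 strong peaks of the list (6.69%) had another strong peak within 10 kb, and 2 of these 18 were the XBP1 pair. Of all listed peaks, 2.12% were strong and 41.3% had any other centre within 10 kb. The share of all listed peaks with a strong peak within 10 kb was not computed. Whether strong peaks stood together more or less often than other peaks was therefore not tested. The XBP1 cluster was also 1 of 6 regions that held at least 4 peaks scoring 1000 or more.

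**Figure D4:**
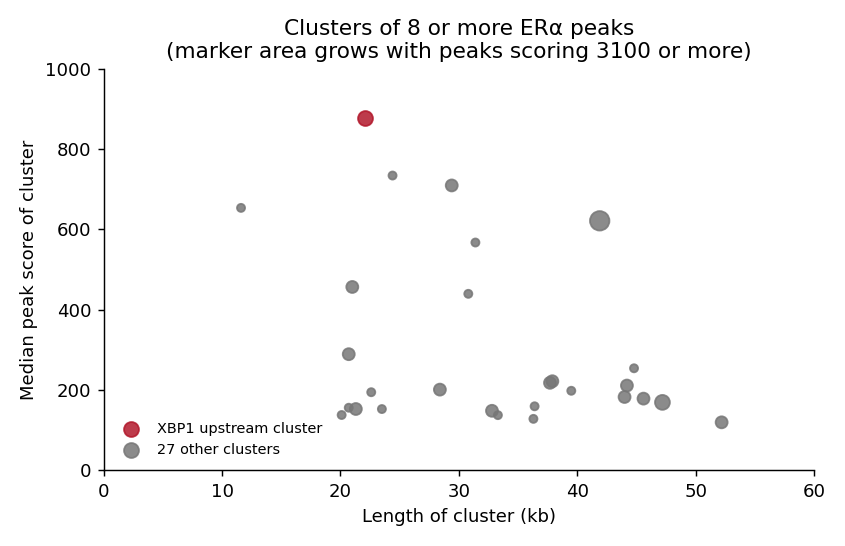
Median peak score (vertical axis) against length in kb (horizontal axis) for the 28 clusters of 8 or more peaks joined within 10 kb; the marker area grows with the number of peaks scoring 3100 or more. The XBP1 cluster, in red at 22.1 kb and 876.81, lies above the 27 others, which reach at most 733.67.

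Beyond the 9 peaks the surrounding chromosome was empty of listed peaks for long distances. Towards lower coordinates the next peak was 787.3 kb away, at chr22:28398916-28399274, with a score of 61.37. Towards higher coordinates it was 508.2 kb away, at chr22:29730940-29731191, with a score of 57.68. These first peaks outside the window lay 650.7 and 380.9 kb beyond its borders, so moderate changes of the borders would not alter the members. Both scored below the list median, and the next peaks at or above it were 1369.3 and 551.2 kb from the XBP1 peaks. The median gap between neighbouring peaks on chromosomes 1 to 22 and X was 53.6 kb. Gaps of at least 787.3 kb made up 7.1% of these gaps, and gaps of at least 508.2 kb made up 12.1%.

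Gaps of this length on both sides were compared with those of other regions with as many peaks, after the values had been seen. When peaks were joined within 20 kb, so that the downstream peak was included, the XBP1 region held 9 peaks and its shorter flanking gap was 508.2 kb. Of the 47 other regions of 9 or more peaks, the shorter gap ran from 20.6 to 400.3 kb with a median of 44.7 kb. Of 8153 regions of any size with a listed peak on either side, 5.96% had gaps of at least 508.2 kb on both sides. Besides XBP1 these were 485 regions, of which 424 were single peaks and none had more than 5. With joining within 15 or 30 kb, again no other region of 9 or more peaks had so long a shorter gap. With joining within 50 kb, 1 of 121 others did, with 516.5 kb. A stretch without listed peaks is not shown to lack binding, because weak sites and sequence to which reads cannot be placed uniquely may be missing from the list.

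**Figure D5:**
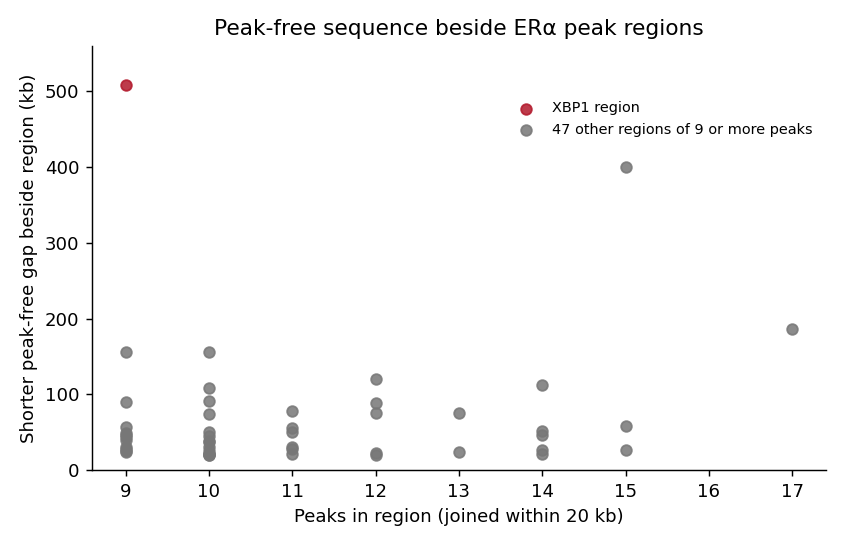
Shorter of the 2 peak-free gaps beside a region in kb (vertical axis) against the number of peaks in it (horizontal axis), for regions of 9 or more peaks joined within 20 kb. The XBP1 region, in red at 508.2 kb, lies above the 47 other regions, which reach at most 400.3 kb.

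The peaks were not assigned to target genes. In the RefSeq gene order on GRCh38, CCDC117, HSCB and CHEK2 follow XBP1 on its downstream side, where the single peak scoring 619.10 lies. On the upstream side, where the other 8 peaks lie, the next entries are the pseudogene BBLNP2, the long non-coding RNA gene LOC107985549 and then ZNRF3, which encodes a membrane ubiquitin ligase that limits Wnt signalling. Where these genes lie relative to the peaks was not examined, because that annotation follows another build than the list.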

How the data were processed

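Chromatin of estradiol-treated T47D cells was immunoprecipitated for ERα and sequenced beside an input library, per the labels' protocols. The authors deposited 1 list of peaks with a start, an end and a score each, and per the file the peak names begin with MACS, a peak caller. Per the submitters' processing notes, the tools were Bowtie 0.12.9, CASAVA 1.8 and HOMER, without stated roles, and the build was hg19. The sources used here do not give the version or threshold of the caller, or the handling of duplicate or multiply placed reads. All of these affect which weak sites are listed and how wide regions are divided.

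Starts are counted from 0 in the file, and 1 was added for printing. No peak ended past its chromosome in hg19, by the lengths in GenomeInfoDb 1.38.1. The coordinates of XBP1 are those given with the rule for the window, and they are approximate. Position, rank, spacing, density and clusters were computed with Python 3.11.15, NumPy 2.4.6, pandas 2.3.3 and SciPy 1.17.1, and plotted with matplotlib 3.10.9. The counting steps were tested on simulated data. With 1 library of each kind no test was run. Motifs were searched in RefSeq promoter sequences of GRCh38.p14 and not in the peaks, since no hg19 sequence was used here. The only gene chosen for description was XBP1, with the 3 nearest entries on each side by gene order. The window, the measures and the groups compared were chosen with earlier results of these data known, and joining within 15 to 50 kb and clusters of 4 to 6 or more peaks were added after seeing the values.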

Additional observations from a re-analysis of the deposited data

How the results depend on the processing

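The number of XBP1 peaks was 9 by any overlap or whole containment and in 100 kb or 1 Mb around the start, 8 and 6 at higher score limits and 6 after merging within 500 bp, but 2 after merging within 10 kb and 1 within 20 kb. By whole chromosome lengths, the density was 7.20 times that of chromosomes 1 to 22 and X (exact Poisson 95% interval 3.29 to 13.7, counting error only, with peaks treated as independent). It was 19.23 times for the highest-scoring 25%, 21.61 in 100 kb, 2.18 after merging within 10 kb and 2.16 in 1 Mb. The share of windows with as many peaks as the XBP1 window was 1.85%. It was 0.643% for peaks at or above the median score, 0.366% for the highest 25%, 0.191% for 100 kb windows, 4.25% and 23.2% after merging within 500 bp and 10 kb, 15.5% for 1 Mb windows and 18.5% for windows centred on peaks. Promoter peaks numbered 0 within 0.5, 1 and 2.5 kb and 1 within 5 kb. The share of XBP1 peaks at or above the median score was 88.9%, 77.8% against chromosome 22 and 55.6% against peaks of similar width. The causes of these differences were not tested. No paired analysis was possible because the groups have a single library each. The unknown depth limits which weak sites could be listed.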
